A study of Danio rerio with 8 samples.

Results

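Adult zebrafish hearts taken 3 days after the ablation of ventricular cardiomyocytes were compared with uninjured adult hearts. The comparison uses 2 libraries from hearts at 3 days post injury (3 dpi) and 2 control libraries, which are 4 of the 8 bulk RNA sequencing libraries of the study. The 3 dpi fish had received 5 mM metronidazole (MTZ) in 0.1% DMSO for 48 hours. The control fish are labelled as uninjured, day 0 and DMSO, which at 0.1% was the vehicle; the protocol text places the day 0 collection before MTZ. Each library pooled 4 to 6 hearts of fish about 6 months old, and ablations in the study used fish of 5 to 12 months. Ablation used the vmhc:mCherry-NTR line, in which the promoter of the ventricular myosin gene vmhc drives a bacterial nitroreductase that turns MTZ into a toxin inside the cell. The labels name this line together with wild-type AB, hsWnt8:GFP and hsDKK1:GFP fish and do not give the genotype of single libraries. No group received MTZ without ablation, so the drug and the loss of cardiomyocytes cannot be told apart. The labels do not tie the replicate pools to different clutches or days, so the p-values measure the spread between pools of the same label, here estimated over all 8 libraries, which may be technical.

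Zebrafish are known for regrowing heart muscle after injury. Dying muscle is followed by an early wound phase in which cytokines and chemokines call in leukocytes, plasma proteins and coagulation factors act on the damaged tissue, and the epicardium, endocardium and fibroblasts lay down a provisional matrix. Surviving cardiomyocytes near the damage are known to turn down parts of their mature programme before they divide.

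The 3 dpi libraries held 11856744 and 14190080 counts and the control libraries 10868019 and 17734354. The 3 dpi and control libraries carry the same run prefix and lane in their labels. Mitochondrially encoded transcripts took 7.14% and 9.54% of counts at 3 dpi and 14.9% and 15.3% in control hearts. Levels are given as CPM, library counts scaled to a common depth by the TMM method, with replicate 1 before replicate 2. Markers of cardiomyocytes summed to 27620 and 51760 CPM in 3 dpi hearts and to 79450 and 91400 CPM in control hearts, so both groups held heart muscle as labelled. Of 20 such markers tested 2 rose and 3 fell, and 12 fell without 3 dpi replicate 2, while none (0) fell without 3 dpi replicate 1 or without control replicate 2. In whole hearts, fewer cells of a type and less RNA per cell cannot be told apart. vmhc, whose promoter drives the nitroreductase, stood at 1051 and 545 CPM in 3 dpi hearts and at 202 and 220 CPM in control hearts, while the main ventricular myosin transcript vmhcl stood at 4347 and 7380 CPM in 3 dpi hearts and 20634 and 20969 CPM in control hearts (log2 fold change -1.83, adjusted p = 0.0202 in edgeR's quasi-likelihood test). The vmhcl call was lost without 3 dpi replicate 1 (adjusted p = 0.103), without control replicate 2 (0.0571) and in a fit of only these 4 libraries (0.102).

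Of 19330 genes tested, 3015 passed an adjusted p of 0.05 in edgeR's quasi-likelihood test (15.6%), 1749 higher at 3 dpi (9.05%) and 1266 lower (6.55%). The verbs rose and fell are used below only of genes that passed. Counts in the gene lists below are to be read against these shares of 9.05% and 6.55%. In 56.7% of genes tested both 3 dpi libraries lay on the same side of both control libraries. 3 dpi replicate 1 lay farther from the control libraries than 3 dpi replicate 2 did, in 80.8% of the genes that rose and in 84.4% of those that fell. Without 3 dpi replicate 1 the calls were 668 higher and 317 lower, and without control replicate 2 they were 646 and 404. Scaling by library totals in place of TMM moved the median log2 fold change of all genes by 0.438, to 0.441, and gave 3518 higher and 537 lower, so that 86.8% of calls were higher against 58.0% with TMM. Fold changes below are relative to the TMM scale. List counts given under library totals are to be read against these 3518 and 537 of all 19330 genes.

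**Figure D1:**
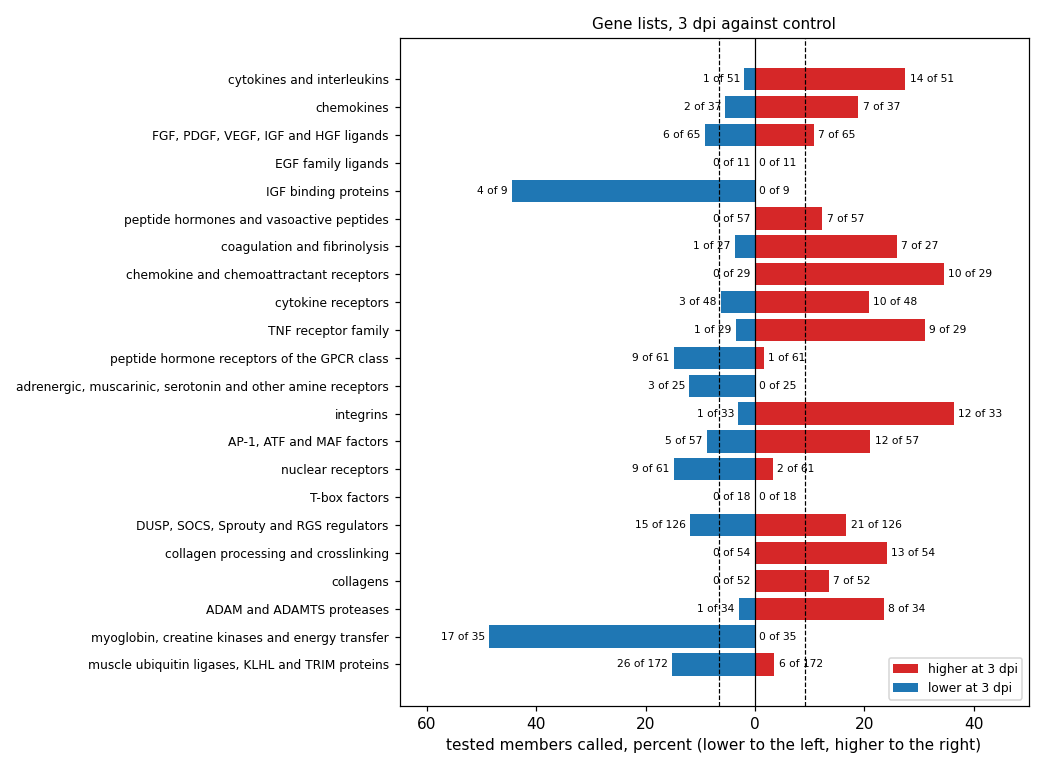
Share of the tested members of each gene list that were called higher (to the right) or lower (to the left) at 3 dpi against control, in percent of tested members, with the number called and the number tested beside each bar; dashed lines mark the shares over all genes, 9.05% and 6.55%. Cytokines, chemoattractant receptors, integrins and collagen processing lie on the higher side, and energy transfer and IGF binding proteins on the lower side, but under library totals IGF binding proteins counted 1 higher and 1 lower.

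Secreted signals were among the strongest rises at 3 dpi. The lists hold 617 genes for secreted factors, of which 465 were tested. Under library totals 99 rose and 11 fell, against 3518 and 537 of all 19330 genes. With TMM 67 rose, 14.4% against 9.05% of all genes, and 27 fell, 5.81% against 6.55%. Without 3 dpi replicate 1 these counts were 34 and 3, without control replicate 2 they were 30 and 8, and without control replicate 1 46 and 22. Among cytokines and interleukins 14 of 51 rose and 1 fell, with a median log2 fold change of 1.0 against 0 for all genes; 8 rose without 3 dpi replicate 1 and 9 without control replicate 2. With all libraries 27.5% of this list rose and 1.96% fell, against 9.05% and 6.55% of all genes. il11a and lepb, cytokines known from zebrafish wound responses, had 268 and 160 CPM in 3 dpi replicate 1 and 130 and 13.7 CPM in 3 dpi replicate 2. Both lay at 1.23 CPM or below in each control library, so the groups were far apart although lepb differed widely between the 3 dpi pools.

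m17, a fish cytokine of the interleukin 6 family, gave 14.2 and 6.54 CPM in 3 dpi hearts, against 0.0819 and 0 CPM in control hearts. That is 372 counts against 1, a ratio of 297 with an exact 95% interval of 52.9 to 11800, which covers counting error only. tnfb, a tumour necrosis factor gene, stood at 11.6 and 7.27 CPM in 3 dpi hearts and at 0.574 and 1.00 CPM in control hearts (log2 fold change 3.53, SE 0.37, adjusted p = 0.000364). The lower 3 dpi pool was still above the higher control pool several times over. grna, a progranulin gene and thus of a secreted factor made by many cells, had 603 and 250 CPM in 3 dpi hearts and 84.9 and 79.5 CPM in control hearts (2.37, SE 0.36, adjusted p = 0.00277). Macrophage markers moved in the same libraries: 19 of 25 rose, and their summed level was 5360 and 2527 CPM in 3 dpi hearts and 1331 and 1662 CPM in control hearts. None fell by edgeR's quasi-likelihood test, by DESeq2 or at an unadjusted p under 0.05 (0 in each case), and without control replicate 2 8 rose, without 3 dpi replicate 1 10 and without control replicate 1 12. Their part in the cytokine changes was not tested.

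Chemokines, the secreted guides of leukocytes, were mixed, with 18.9% of those tested higher and 5.41% lower, against 9.05% and 6.55% of all genes. Of 37 tested 7 rose and 2 fell, but 2 rose without 3 dpi replicate 1, 12 without 3 dpi replicate 2, 3 without control replicate 1 and 3 without control replicate 2. ccl34a.4 reached 17.9 and 8.83 CPM in 3 dpi hearts, against 0.246 and 0.295 CPM in control hearts (5.58, SE 0.64, adjusted p = 0.000633). cxcl18b, known in zebrafish to attract neutrophils, stood at 80.4 and 91.1 CPM in 3 dpi hearts and 16.7 and 32.6 CPM in control hearts (1.79, SE 0.31). ccl33.3 went the other way, with 0.984 and 1.35 CPM in 3 dpi hearts and 8.93 and 6.79 CPM in control hearts (-2.74, SE 0.38).

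Growth factors were mixed, with 10.8% of those tested higher and 9.23% lower, against 9.05% and 6.55% of all genes. Of 65 ligands of the FGF, PDGF, VEGF, IGF, HGF and CCN families 7 rose and 6 fell, and the median log2 fold change was 0.14; without 3 dpi replicate 1 the counts were 3 and 1, without 3 dpi replicate 2 11 and 7, without control replicate 2 3 and 2, and under library totals 13 and 2. ctgfa, a matricellular CCN protein known as a target of the YAP coactivator, stood at 367 and 202 CPM in 3 dpi hearts and 80.1 and 76.8 CPM in control hearts (1.86, SE 0.28, adjusted p = 0.00240). cyr61, another CCN protein, stood at 335 and 318 CPM in 3 dpi hearts and 132 and 115 CPM in control hearts (1.40, SE 0.21). igf2b, an insulin-like growth factor, rose by 1.33 (SE 0.22). vegfab, a ligand for blood vessel growth, fell to 67.2 and 90.0 CPM in 3 dpi hearts, against 193 and 202 CPM in control hearts (-1.33, SE 0.22, adjusted p = 0.00348). No EGF family ligand of 11 tested passed edgeR's quasi-likelihood test or DESeq2 (0 in each direction), and at an unadjusted p under 0.05 there were 0 higher and 2 lower.

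IGF binding proteins, which hold insulin-like growth factors in check or carry them, were lower. Of 9 tested 4 fell (44.4%, against 6.55% of all genes), with a median of -0.88. None rose by edgeR's quasi-likelihood test, by DESeq2 or at an unadjusted p under 0.05 (0 in each case). igfbp1b, a member known to rise with fasting and low oxygen, had 0.347 and 0.260 CPM in 3 dpi hearts and 6.23 and 8.08 CPM in control hearts (-4.54, SE 0.60, adjusted p = 0.00139). The list counted 1 lower without 3 dpi replicate 1, 2 lower without control replicate 2, and 1 lower with 1 higher under library totals.

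Of the vasoactive and hormone peptides 57 were tested. Under library totals 9 rose, a share below that of all genes, 3518 of 19330. With TMM 7 rose, 12.3% against 9.05% of all genes. None fell by edgeR's quasi-likelihood test or DESeq2 (0 each, with 2 at an unadjusted p under 0.05). The rises numbered 4 without 3 dpi replicate 1, 4 without control replicate 1 and 4 without control replicate 2. edn1 (ENSDARG00000036912), an endothelin that constricts vessels, stood at 82.9 and 26 CPM in 3 dpi hearts and 3.85 and 5.43 CPM in control hearts (3.54, SE 0.50, adjusted p = 0.00186). Its relative edn2 stood at 64.7 and 32.4 CPM in 3 dpi hearts and 4.10 and 5.72 CPM in control hearts (3.29, SE 0.36). rln3a, a relaxin gene, had 5.38 and 4.21 CPM in 3 dpi hearts and 0.0819 and 0.177 CPM in control hearts (5.08, SE 0.66). nppb, the natriuretic peptide of strained muscle, rose by 2.68 (SE 0.28). dkk1b, a secreted inhibitor of Wnt signals, had 7.93 and 6.28 CPM in 3 dpi hearts and 0.328 and 0.826 CPM in control hearts (3.54, SE 0.41); the study kept a line with a heat-inducible DKK1b, and the labels do not say that it entered these libraries. fstl1a, a follistatin-like secreted glycoprotein, rose by 3.84 (SE 0.46), and apoeb, an apolipoprotein E gene listed here also as a macrophage marker, had 254 and 50.9 CPM in 3 dpi hearts and 2.38 and 3.48 CPM in control hearts (5.68, SE 0.76). dkk1b, fstl1a and apoeb are not vasoactive or hormone peptides. Among WNT ligands and modulators 3 of 38 rose (7.89%) and 0 fell. Among BMP and activin antagonists 1 of 19 rose (5.26%) and 2 fell (10.5%). Among apolipoproteins and lipid carriers 3 of 33 rose (9.09%) and 4 fell (12.1%), against 9.05% and 6.55% of all genes.

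Genes that control clotting and its dissolution held further rises, in 25.9% of those tested against 9.05% of all genes. Of 27 tested 7 rose and 1 fell; 4 rose without 3 dpi replicate 1 and 3 without control replicate 2. plaua (ENSDARG00000075265), urokinase, which activates plasminogen to dissolve clots, stood at 39.4 and 40.4 CPM in 3 dpi hearts and 0.983 and 1.42 CPM in control hearts (5.03, SE 0.32, adjusted p = 7.60e-05). The 2 pools of each group lay close to each other. f3a, tissue factor, which starts clotting, had 38.1 and 48.1 CPM in 3 dpi hearts and 5.33 and 2.60 CPM in control hearts (3.47, SE 0.33). itih1, an inhibitor heavy chain that binds hyaluronan, had 59.4 and 67.9 CPM in 3 dpi hearts and 3.03 and 5.07 CPM in control hearts (3.95, SE 0.31). cst14b.1, a cystatin, rose by 2.31 (SE 0.35). itih1 and cst14b.1 are protease inhibitor genes and not clotting genes. Among serpins and other protease inhibitors 7 of 31 rose (22.6%) and 3 fell (9.68%), against 9.05% and 6.55% of all genes. Of 13 thrombocyte markers 2 were higher and 7 lower, with a median log2 fold change of -0.95. A sum weighs abundant markers most. The summed level of these markers went the other way, with 2620 and 2191 CPM in 3 dpi hearts and 1891 and 1722 CPM in control hearts. Their counts without 3 dpi replicate 1 were 0 and 2, without control replicate 2 0 and 3, and under library totals 2 and 2.

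**Figure D2:**
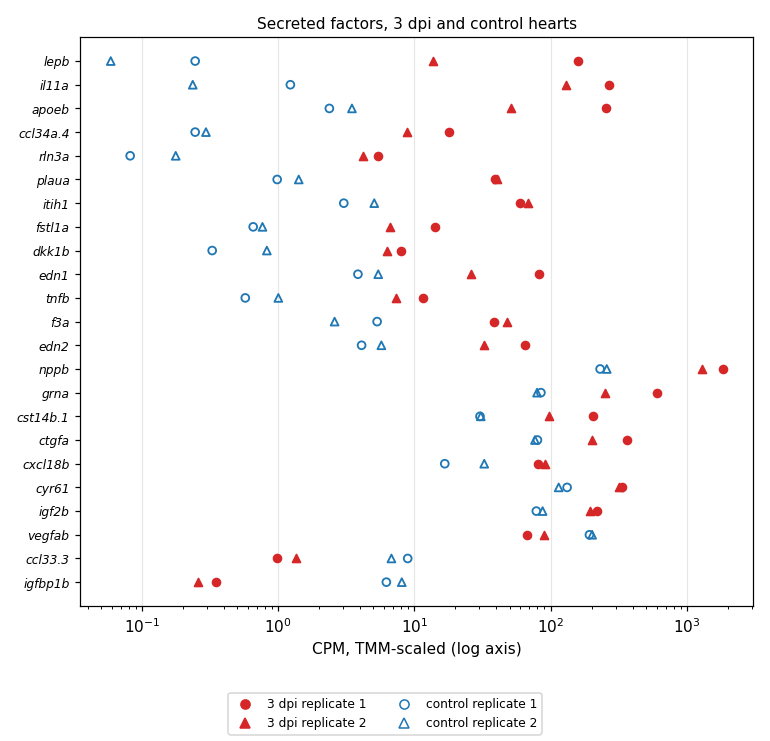
TMM-scaled CPM of secreted factors in each library, on a log axis (genes with 0 counts in a library are not drawn), with 3 dpi libraries as filled points and control libraries as open points, sorted by log2 fold change. plaua lies at 39.4 and 40.4 CPM in 3 dpi hearts and 0.983 and 1.42 CPM in control hearts, and vegfab, ccl33.3 and igfbp1b are lower in 3 dpi hearts.

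The lists hold 1069 receptor and adhesion genes, of which 746 were tested. With TMM 92 rose (12.3%, against 9.05% of all genes) and 44 fell (5.90%, against 6.55%). Under library totals 145 rose and 22 fell, shares close to those of all genes, 3518 and 537 of 19330. The counts were 41 and 15 without 3 dpi replicate 1, and without control replicate 2 37 and 20. Receptors for leukocyte attractants rose in 10 of 29 cases (34.5%, against 9.05% of all genes), with a median of 1.35. None fell by edgeR's quasi-likelihood test (0, with 1 at an unadjusted p under 0.05 and 1 by DESeq2). Without 3 dpi replicate 1, and without control replicate 2, the rises numbered 4, and without control replicate 1 they numbered 6. ccr12b.2, a chemokine receptor, had 33.4 and 19.8 CPM in 3 dpi hearts and 0.901 and 0.354 CPM in control hearts (5.45, SE 0.63, adjusted p = 0.000651). c5ar1, the receptor of the complement fragment C5a, had 26.8 and 16.5 CPM in 3 dpi hearts and 1.8 and 1.00 CPM in control hearts (3.97, SE 0.50). C3AR1, the receptor of C3a, rose by 3.52 (SE 0.45) and fpr1, a formyl peptide receptor, by 2.13 (SE 0.41). The macrophage markers given above moved in the same libraries. Neutrophil markers rose in 5 of 15 cases and fell in 3. Their median log2 fold change was 0.75, against 0.41 without 3 dpi replicate 1 and 0.56 without control replicate 2. They summed to 839 and 762 CPM in 3 dpi hearts and 928 and 701 CPM in control hearts. Lymphocyte markers rose in 1 of 16 cases and fell in 0 by edgeR's quasi-likelihood test, with 3 lower at an unadjusted p under 0.05. The part of these cell types was not tested.

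Of 48 receptors of cytokines tested 14 rose and 2 fell under library totals, against 3518 and 537 of all 19330 genes. With TMM 10 rose (20.8%, against 9.05% of all genes) and 3 fell (6.25%, against 6.55%), with a median of 0.12. With control replicate 2 left out 4 rose, and with 3 dpi replicate 1 left out 6. lifrb, a receptor of the leukaemia inhibitory factor type, had 43.2 and 17.4 CPM in 3 dpi hearts and 4.92 and 5.25 CPM in control hearts (2.57, SE 0.39, adjusted p = 0.00257). il21r.1 rose by 2.84 (SE 0.35), csf2rb, the shared beta chain of receptors for myeloid growth factors, by 2.56 (SE 0.41), and il4r.1 by 1.96 (SE 0.32). ghrb, a growth hormone receptor, fell to 44.6 and 41.8 CPM in 3 dpi hearts, against 200 and 213 CPM in control hearts (-2.26, SE 0.20, adjusted p = 0.000155). In the TNF receptor family 9 of 29 rose and 1 fell, although 2 rose without 3 dpi replicate 1 and 2 without control replicate 2. With all libraries 31% of the TNF receptor family rose and 3.45% fell, against 9.05% and 6.55% of all genes. tnfrsf11b, osteoprotegerin, a soluble decoy for RANK ligand, had 67.7 and 126 CPM in 3 dpi hearts and 3.20 and 2.42 CPM in control hearts (5.12, SE 0.44, adjusted p = 0.000135). This gene was higher in 3 dpi replicate 2 than in replicate 1, unlike most of those that rose.

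Of 61 peptide hormone receptors of the G protein-coupled class 9 fell (14.8%, against 6.55% of all genes) and 1 rose, with a median of -0.07, and under library totals 6 fell and 3 rose; 3 fell without 3 dpi replicate 1 and 3 without control replicate 2. In the list of adhesion and orphan receptors of that class 6 of 80 rose and 4 fell; the counts were 1 and 3 without 3 dpi replicate 1, and 2 and 3 without control replicate 2. With all libraries the 6 rises were 7.5% of those tested and the 4 falls 5%, against 9.05% and 6.55% of all genes. gpr22a (ENSDARG00000004592), an orphan receptor whose mammalian counterpart is known from heart and brain, stood at 13.6 and 37.7 CPM in 3 dpi hearts and at 275 and 343 CPM in control hearts (-3.59, SE 0.44, adjusted p = 0.000887). ednrab (ENSDARG00000062262), an endothelin A receptor, had 6.54 and 14 CPM in 3 dpi hearts and 46.1 and 49.1 CPM in control hearts (-2.21, SE 0.32, adjusted p = 0.00215). Its paralog ednraa, chosen after its values were seen, had 43.9 and 40.8 CPM in 3 dpi hearts and 43.8 and 39.3 CPM in control hearts (0.03, SE 0.19, adjusted p = 0.958). The endothelin ligands edn1 and edn2 thus rose in libraries in which 1 of these receptor paralogs fell. avpr1ab, a vasopressin receptor, fell by 2.63 (SE 0.53) and sstr5, a somatostatin receptor, fell by 3.30 (SE 0.59).

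The lists hold 152 amine receptor genes, of which 127 were not tested and 99 had 0 counts in the 3 dpi and control libraries. Under library totals 2 of the 25 tested fell, against 537 of all 19330 genes. With TMM 3 fell (12%, against 6.55% of all genes), a share that rests on few genes. None rose by edgeR's quasi-likelihood test, by DESeq2 or at an unadjusted p under 0.05 (0 in each case). hrh3, a histamine receptor, had 2.14 and 2.23 CPM in 3 dpi hearts and 17 and 11.7 CPM in control hearts (-2.71, SE 0.36, adjusted p = 0.00140). adrb2b, a beta-adrenergic receptor, stood at 7.01 and 7.01 CPM in 3 dpi hearts and 20.7 and 18.6 CPM in control hearts (-1.48, SE 0.26). adrb1, the main beta-adrenergic receptor of mammalian heart, changed by -1.51 (SE 0.41, adjusted p = 0.0328), by -1.0 without 3 dpi replicate 1 (adjusted p = 0.191), by -2.30 without 3 dpi replicate 2 (0.00543), by -1.27 without control replicate 1 (0.124), by -1.75 without control replicate 2 (0.0732), by -1.11 under library totals (0.0905) and by -1.54 in the fit of only these 4 libraries (0.0540). Cardiomyocyte markers, whose summed levels are given above, were lower in the same libraries; their part in the fall of these receptors was not tested.

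Some paralogs moved apart. Sphingosine 1-phosphate is a lipid that acts on vessel walls and leukocytes. Its receptors s1pr1 and s1pr3a rose, the first to 44.1 and 42.7 CPM in 3 dpi hearts, against 8.77 and 16.7 CPM in control hearts (1.76, SE 0.28, adjusted p = 0.00330). s1pr3a had 6.31 and 5.04 CPM in 3 dpi hearts and 1.07 and 0.531 CPM in control hearts (2.86, SE 0.41). s1pr5a fell to 18.1 and 26.6 CPM in 3 dpi hearts, against 72.8 and 82.5 CPM in control hearts (-1.79, SE 0.23, adjusted p = 0.00120). The tetraspanins cd9b and cd9a, membrane organisers, also differed: cd9b had 150 and 107 CPM in 3 dpi hearts and 0.738 and 2.42 CPM in control hearts (6.28, SE 0.43, adjusted p = 7.60e-05). cd9a had 32.7 and 31.1 CPM in 3 dpi hearts and 68.1 and 85.9 CPM in control hearts, a fall of -1.27 (SE 0.22), or -0.82 under library totals. For TGF beta receptors of type II, tgfbr2a rose to 82.5 and 69.1 CPM in 3 dpi hearts, against 21.8 and 13.1 CPM in control hearts (2.12, SE 0.27). tgfbr2b stood at 47.1 and 59.7 CPM in 3 dpi hearts and 86.4 and 113 CPM in control hearts (-0.90, adjusted p = 0.0286), a call lost without 3 dpi replicate 1 (adjusted p = 0.199), without control replicate 2 (0.172), under library totals (0.162) and in the fit of only these 4 libraries (0.0714).

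Of 33 integrins 12 rose (36.4%, against 9.05% of all genes) and 1 fell (3.03%, against 6.55%), with a median of 1.05. Of 178 cadherins, immunoglobulin adhesion molecules and syndecans 18 rose (10.1%, against 9.05% of all genes) and 7 fell. Of these other adhesion genes 6 rose and 2 fell without 3 dpi replicate 1, 18 and 16 without 3 dpi replicate 2, 11 and 8 without control replicate 1, and 8 and 3 without control replicate 2. Of the integrins 8 rose without 3 dpi replicate 1 and 8 without control replicate 2. itga2.1, an integrin alpha 2 gene, had 209 counts in 3 dpi hearts and 0 in control hearts, which is at least 55.6-fold higher against a floor of 3 counts over the control group. itga6a, of a laminin receptor, had 25.7 and 35.0 CPM in 3 dpi hearts and 4.59 and 4.60 CPM in control hearts (2.72, SE 0.34), and itga5, of the fibronectin receptor, rose by 1.34 (SE 0.22). gpc1b, a glypican that binds growth factors, had 88.5 and 65.5 CPM in 3 dpi hearts and 4.59 and 7.85 CPM in control hearts (3.62, SE 0.32, adjusted p = 0.000144). cd276, an immune checkpoint protein, had 87.6 and 66.4 CPM in 3 dpi hearts and 10.2 and 10.3 CPM in control hearts (2.90, SE 0.23). jam2a, a junctional adhesion molecule, fell to 10.8 and 13.5 CPM in 3 dpi hearts, against 31.6 and 47.1 CPM in control hearts (-1.70, SE 0.24). ephb3a, an Eph receptor of cell repulsion, fell by 2.28 (SE 0.37).

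**Figure D3:**
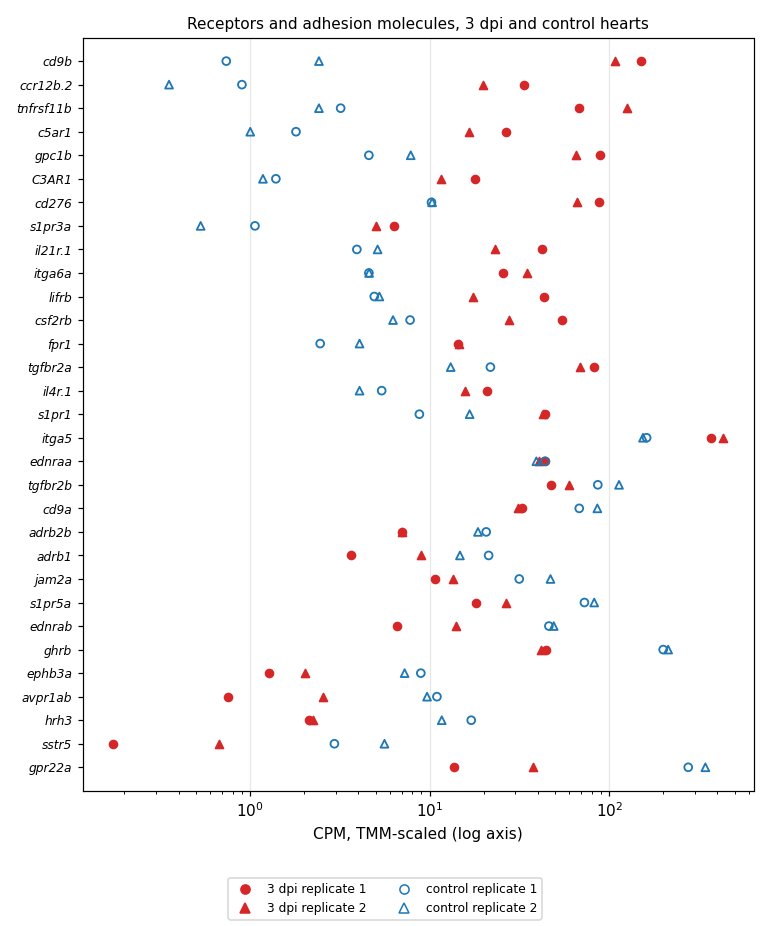
TMM-scaled CPM of receptors and adhesion molecules in each library, on a log axis (genes with 0 counts in a library are not drawn), with 3 dpi libraries as filled points and control libraries as open points, sorted by log2 fold change. cd9b, ccr12b.2 and tnfrsf11b lie at the higher end and gpr22a, sstr5 and hrh3 at the lower end.

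Transcription factors as a class did not rise more often than all genes. Of 827 tested, out of 996 in the table, 50 rose (6.05%, against 9.05% of all genes) and 62 fell (7.50%, against 6.55%). Under library totals 105 rose and 22 fell. The share that rose was again below that of all genes, 3518 of 19330 under that scaling. The counts were 21 and 17 without 3 dpi replicate 1, and without control replicate 2 15 and 22. In the AP-1, ATF and MAF list 12 of 57 rose and 5 fell; the rises numbered 6 without 3 dpi replicate 1 and 3 without control replicate 2. With all libraries 21.1% of this list rose and 8.77% fell, against 9.05% and 6.55% of all genes. fosl1a (ENSDARG00000015355), a Fos-related subunit of AP-1, had 53.1 and 50.1 CPM in 3 dpi hearts and 2.29 and 1.3 CPM in control hearts (4.87, SE 0.34, adjusted p = 7.60e-05). fosl2 had 242 and 163 CPM in 3 dpi hearts and 33.4 and 22.0 CPM in control hearts (2.88, SE 0.32). 

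The factors sall1b, glis3 and ankrd1a were close to absent from control hearts. sall1b (ENSDARG00000075891), a zinc finger factor, had 11.2 and 12.8 CPM in 3 dpi hearts and 0.0819 and 0.177 CPM in control hearts (6.39, SE 0.59, adjusted p = 0.000175). glis3, a zinc finger factor of the GLI-similar type, had 138 counts in 3 dpi hearts and none in control hearts, at least 36.7-fold higher against a floor of 3 counts over the control group. ankrd1a, a muscle ankyrin repeat protein that acts in the nucleus and at the sarcomere, had 292 and 194 CPM in 3 dpi hearts and 0.574 and 0.590 CPM in control hearts. Other factors rose from higher control levels. fhl3a, a LIM-domain cofactor, rose by 2.38 (SE 0.26) from 7.95 and 10.1 CPM in control hearts. csrp1a, a LIM protein of smooth muscle, rose by 1.44 (SE 0.24) from 24.8 and 32.7 CPM in control hearts. bcl3, a nuclear partner of NF-kB, had 16.5 and 11.8 CPM in 3 dpi hearts and 1.72 and 1.83 CPM in control hearts (2.99, SE 0.41). spi1b, the myeloid factor Pu.1 and itself a macrophage marker here, rose by 2.40 (SE 0.34) from 20.7 and 13.1 CPM in control hearts. pparg, a nuclear receptor of lipid metabolism, rose by 2.60 (SE 0.38) from 3.52 and 2.42 CPM in control hearts.

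Factors that fell included regulators of transcription in muscle and vessel wall. cited4a, a coactivator whose mouse counterpart is known from exercised heart, stood at 52.9 and 35.7 CPM in 3 dpi hearts and 295 and 235 CPM in control hearts (-2.58, SE 0.27, adjusted p = 0.000364). ncor1, a nuclear receptor corepressor, fell by 1.23 (SE 0.22), with -0.81 under library totals. Of 61 nuclear receptors 9 fell and 2 rose, with a median of -0.58; without 3 dpi replicate 1 1 fell, without control replicate 2 2, without control replicate 1 6, and under library totals 2 fell and 2 rose. With all libraries and TMM the 9 falls were 14.8% of nuclear receptors tested and the 2 rises 3.28%, against 6.55% and 9.05% of all genes. klf2a, a flow-responsive factor of endothelium, had 78.3 and 81.9 CPM in 3 dpi hearts and 193 and 191 CPM in control hearts (-1.26, SE 0.20), or -0.83 under library totals. Endothelial markers, klf2a among them, rose in 1 of 24 cases and fell in 2. They summed to 3490 and 4509 CPM in 3 dpi hearts and 4405 and 4750 CPM in control hearts. mxi1, a MAX partner that opposes MYC, fell by 1.68 (SE 0.27), foxo4 fell by 1.44 (SE 0.22) and zbtb16b fell by 2.00 (SE 0.29). tal2, a bHLH factor, had 21 and 12.3 CPM in 3 dpi hearts and 61.3 and 105 CPM in control hearts (-2.33, SE 0.36). Erythroid markers, of which 5 of 20 fell, summed to 3900 and 4842 CPM in 3 dpi hearts and 6849 and 16910 CPM in control hearts; 1 fell without 3 dpi replicate 1, 2 without 3 dpi replicate 2, 9 without control replicate 1 and 1 without control replicate 2.

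Of 16 factors in the CEBP and PAR bZIP list 2 rose and 5 fell, whereas under library totals 5 rose and 2 fell. The list counted 1 and 3 without 3 dpi replicate 1, 3 and 3 without 3 dpi replicate 2, 1 and 3 without control replicate 1, and 1 and 4 without control replicate 2. With all libraries and TMM 12.5% of this list rose and 31.2% fell, against 9.05% and 6.55% of all genes. Genes known from the circadian clock in this list and others are given here as single genes. tefa, a PAR bZIP factor driven by light and the clock in zebrafish, stood at 99.2 and 120 CPM in 3 dpi hearts and 252 and 399 CPM in control hearts (-1.57, SE 0.26, adjusted p = 0.00366). dbpb fell by 1.42 (SE 0.23) and nr1d1, a clock repressor, fell by 1.27 (SE 0.22), whereas nfil3, which competes with PAR bZIP factors for their sites, had 26.3 and 21 CPM in 3 dpi hearts and 7.21 and 9.38 CPM in control hearts (1.51, SE 0.25). arntl2, a clock activator, rose by 2.40 (SE 0.37). The labels do not give the time of day at which hearts were taken, and its part was not tested. The cardiac homeobox factor nkx2.5 stood at 42.0 and 94.8 CPM in 3 dpi hearts and 148 and 196 CPM in control hearts (-1.33, adjusted p = 0.0259). That call was lost without 3 dpi replicate 1 (-0.85, adjusted p = 0.133), without control replicate 2 (-1.11, adjusted p = 0.156), under library totals (-0.90, adjusted p = 0.0682) and in the fit of only these 4 libraries (-1.36, adjusted p = 0.0631), and the value was -2.04 without 3 dpi replicate 2. No T-box factor of 18 tested passed edgeR's quasi-likelihood test or DESeq2 (0 in each direction), with 1 higher and 1 lower at an unadjusted p under 0.05.

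Regulators that damp or tune signals moved both ways. Of 126 tested 21 were higher (16.7%, against 9.05% of all genes) and 15 lower (11.9%, against 6.55%). The counts were 11 and 5 without 3 dpi replicate 1, without control replicate 2 11 and 7, without control replicate 1 13 and 11, and under library totals 27 and 5. socs3b, an inhibitor of cytokine signalling, stood at 154 and 145 CPM in 3 dpi hearts and 30.2 and 28.5 CPM in control hearts (2.35, SE 0.35, adjusted p = 0.00241). dusp5, a phosphatase of ERK kinases, had 90.2 and 72.7 CPM in 3 dpi hearts and 17.9 and 18.0 CPM in control hearts (2.18, SE 0.21, adjusted p = 0.000231). rcan1a, an inhibitor and target of calcineurin, had 308 and 299 CPM in 3 dpi hearts and 81.9 and 92.6 CPM in control hearts (1.8, SE 0.22). These genes had close replicates in both groups. tnfaip2b, known in mammals as induced by TNF, rose by 3.47 (SE 0.32) and rgs5b, a G protein regulator of mural cells, by 2.73 (SE 0.37). tob1a, an antiproliferative protein, fell to 84.6 and 73.1 CPM in 3 dpi hearts, against 227 and 260 CPM in control hearts (-1.63, SE 0.23, adjusted p = 0.00189). dusp22b fell by 2.00 (SE 0.30) and pim3, a survival kinase, fell by 1.36 (SE 0.23).

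**Figure D4:**
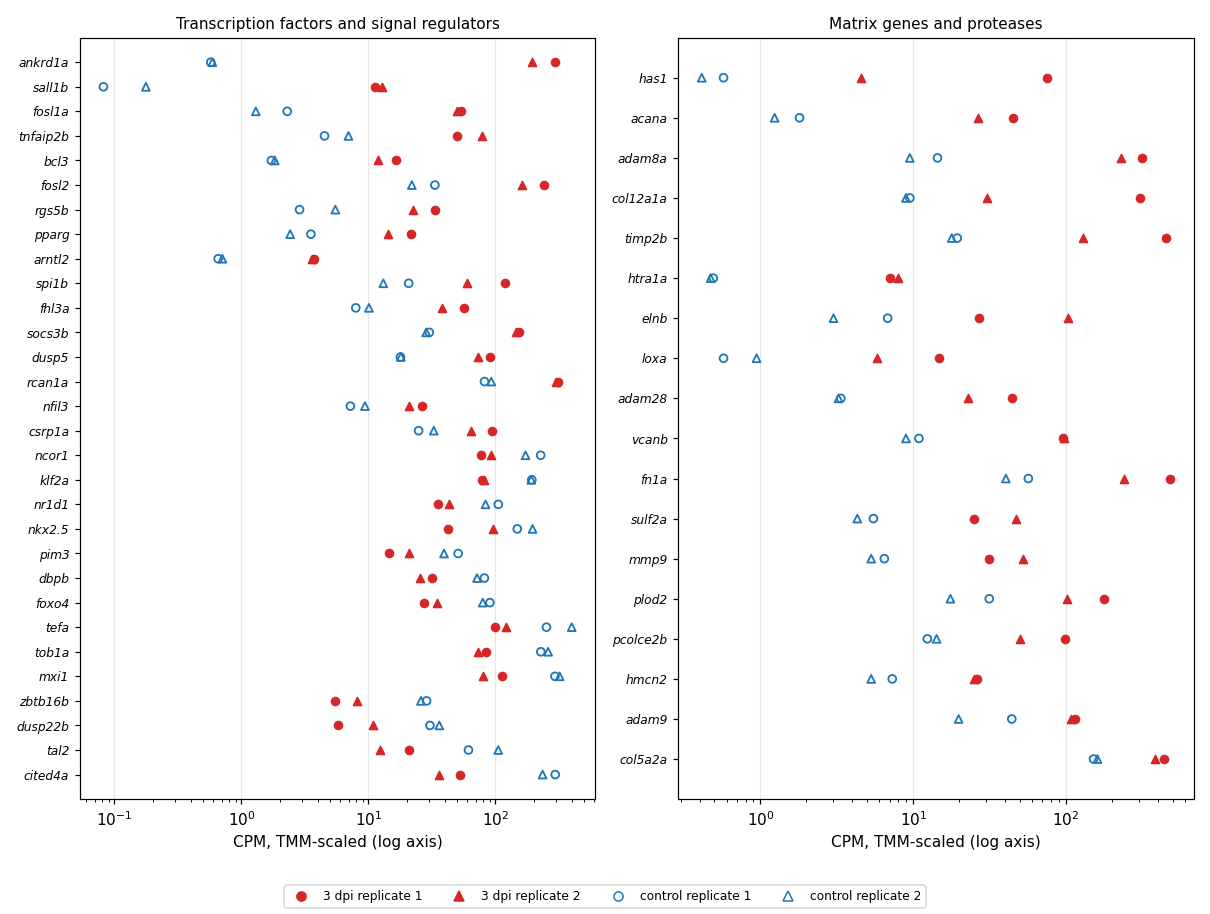
TMM-scaled CPM of transcription factors and signal regulators (left panel) and of matrix genes and proteases (right panel) in each library, on log axes (genes with 0 counts in a library are not drawn), with 3 dpi libraries as filled points and control libraries as open points, sorted by log2 fold change. has1 and col12a1a have 3 dpi pools far apart, at 75.6 and 4.57 CPM and at 304 and 30.4 CPM, while vcanb has them at 96.2 and 97.3 CPM.

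Matrix genes rose far more often than they fell. Of 359 matrix genes in the lists, 324 were tested. Under library totals 94 rose and 2 fell, against 3518 and 537 of all 19330 genes. With TMM 53 rose (16.4%, against 9.05% of all genes) and 8 fell (2.47%, against 6.55%), with a median of 0.31. Leaving out 3 dpi replicate 1 gave 26 and 0, without 3 dpi replicate 2 59 and 15, without control replicate 2 21 and 3, and without control replicate 1 43 and 4. vcanb (ENSDARG00000009401), the hyaluronan-binding proteoglycan versican, stood at 96.2 and 97.3 CPM in 3 dpi hearts and 10.9 and 8.97 CPM in control hearts (3.29, SE 0.24, adjusted p = 7.60e-05). acana, aggrecan, best known from cartilage, had 45.0 and 26.4 CPM in 3 dpi hearts and 1.8 and 1.24 CPM in control hearts (4.57, SE 0.38, adjusted p = 0.000110). fn1a, fibronectin, which regenerating zebrafish epicardium is known to deposit, had 480 and 240 CPM in 3 dpi hearts and 56.7 and 40.4 CPM in control hearts (2.89, SE 0.36). hmcn2, a hemicentin, rose by 2.02 (SE 0.28). spp1, osteopontin, had 600 counts at 3 dpi and 3 in control, a ratio of 160 with an exact 95% interval of 54.3 to 776. has1, a hyaluronan synthase, differed widely between the 3 dpi pools: it had 75.6 and 4.57 CPM in 3 dpi hearts and 0.574 and 0.413 CPM in control hearts, a log2 fold change of 6.35 (adjusted p = 0.00637) that was 3.22 without 3 dpi replicate 1 (adjusted p = 0.0130) and lost its call without control replicate 2 (adjusted p = 0.0837).

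In the list named for collagen processing and crosslinking 13 of 54 genes rose, 24.1% against 9.05% of all genes. None fell by edgeR's quasi-likelihood test or DESeq2 (0 each, with 1 at an unadjusted p under 0.05). The rises numbered 5 without 3 dpi replicate 1, 5 without control replicate 1 and 4 without control replicate 2. plod2, a lysyl hydroxylase, had 177 and 102 CPM in 3 dpi hearts and 31.5 and 17.5 CPM in control hearts (2.51, SE 0.37, adjusted p = 0.00231). pcolce2b, an enhancer of procollagen cleavage, had 98.1 and 49.9 CPM in 3 dpi hearts and 12.4 and 14.2 CPM in control hearts (2.47, SE 0.30). sulf2a, a sulfatase that edits heparan sulfate, had 24.8 and 46.9 CPM in 3 dpi hearts and 5.49 and 4.31 CPM in control hearts (2.88, SE 0.39). loxa, a lysyl oxidase that is also in the smooth muscle list, rose by 3.70 (SE 0.54). Among the collagens themselves 7 of 52 rose, 2 without 3 dpi replicate 1, 3 without control replicate 1 and 1 without control replicate 2. With all libraries the 7 rises were 13.5% of the collagens tested, against 9.05% of all genes. Under library totals 10 of the 52 rose, a share close to that of all genes, 3518 of 19330. col5a2a, of collagen V, had 437 and 381 CPM in 3 dpi hearts and 151 and 161 CPM in control hearts (1.39, SE 0.21, adjusted p = 0.00277). col12a1a had 304 and 30.4 CPM in 3 dpi hearts and 9.51 and 8.97 CPM in control hearts, 4.18 on the log2 scale, and 1.73 without 3 dpi replicate 1; it was not called without control replicate 1 (adjusted p = 0.0527) or control replicate 2 (adjusted p = 0.0805).

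Matrix proteases and a metalloproteinase inhibitor rose. Of the ADAM and ADAMTS genes tested 23.5% rose and 2.94% fell, against 9.05% and 6.55% of all genes. In the ADAM and ADAMTS list 8 of 34 rose and 1 fell, and 5 rose without 3 dpi replicate 1 or control replicate 2. adam8a (ENSDARG00000001452), a leukocyte sheddase, stood at 314 and 228 CPM in 3 dpi hearts and 14.4 and 9.5 CPM in control hearts (4.51, SE 0.30, adjusted p = 7.60e-05). adam28 rose by 3.34 (SE 0.48) and adam9 by 1.8 (SE 0.33). htra1a, a secreted serine protease that cuts matrix proteins, had 7.01 and 7.95 CPM in 3 dpi hearts and 0.492 and 0.472 CPM in control hearts (3.94, SE 0.33). timp2b, a metalloproteinase inhibitor, had 455 and 129 CPM in 3 dpi hearts and 19.4 and 17.9 CPM in control hearts (3.97, SE 0.49), beside mmp9 with 31.4 and 52.5 CPM in 3 dpi hearts and 6.47 and 5.31 CPM in control hearts. The 2 genes had opposite orders of the 3 dpi pools, timp2b highest in replicate 1 and mmp9 in replicate 2. mmp9 is listed here also as a neutrophil marker. Markers of smooth muscle and the bulbus arteriosus rose in 14 of 20 cases and summed to 1200 and 1159 CPM in 3 dpi hearts and 405 and 290 CPM in control hearts. elnb, elastin of the bulbus, had 26.9 and 103 CPM in 3 dpi hearts and 6.80 and 3.01 CPM in control hearts (3.75, adjusted p = 0.00385), 2.48 without 3 dpi replicate 2 and not called without control replicate 2 (adjusted p = 0.0540). Epicardial and fibroblast markers rose in 4 of 23 cases, with a median log2 fold change of 0.16. By edgeR's quasi-likelihood test 0 fell, with 3 lower at an unadjusted p under 0.05 and 3 by DESeq2. Together the 23 summed to 5224 and 4083 CPM in 3 dpi hearts and 3108 and 4065 CPM in control hearts. fn1a and col12a1a belong to these markers, and elnb and loxa to those of smooth muscle, so the sums are not separate from the matrix rises. mfap4 is listed as a marker of both smooth muscle and macrophages. The part of smooth muscle or of epicardium and fibroblasts in the matrix changes was not tested.

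The genes with the largest falls had varied functions. hsd11b2 (ENSDARG00000001975), which in fish inactivates cortisol, stood at 79.6 and 98.7 CPM in 3 dpi hearts and 863 and 935 CPM in control hearts (-3.33, SE 0.26, adjusted p = 8.45e-05). mylk4b, a myosin light chain kinase, had 16.4 and 11.2 CPM in 3 dpi hearts and 273 and 184 CPM in control hearts (-4.05, SE 0.36). slc25a4, a gene of the mitochondrial ADP/ATP carrier family, had 1.51 and 2.49 CPM in 3 dpi hearts and 80.3 and 54.2 CPM in control hearts (-5.06, SE 0.38). The sarcomere proteins myoz2a and lmod2a, of the Z disc and of thin filament ends, fell, the first by a log2 change of -4.36 (SE 0.34) and the second of -3.34 (SE 0.53). camk2a, a calcium-dependent kinase, fell by 3.01 (SE 0.47), g6pcb, a glucose 6-phosphatase, fell by 3.30 (SE 0.47), and nhsl1a fell by 3.39 (SE 0.38). scn3b, a sodium channel subunit, had 25.9 and 85.1 CPM in 3 dpi hearts and 300 and 282 CPM in control hearts (-2.39, SE 0.44). In the list of sodium, calcium, chloride and pacemaker channels 8 of 123 rose (6.5%) and 3 fell (2.44%), against 9.05% and 6.55% of all genes.

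The genes of phosphate transfer and oxygen storage fell in 17 of 35 cases, 48.6% against 6.55% of all genes. None rose by edgeR's quasi-likelihood test (0, with 3 at an unadjusted p under 0.05 and 3 by DESeq2). Without 3 dpi replicate 1 8 fell, without control replicate 2 5, and under library totals 10 fell and 4 rose. ckmb, a muscle creatine kinase, had 1.68 and 2.44 CPM in 3 dpi hearts and 20.2 and 31.8 CPM in control hearts (-3.65, SE 0.32, adjusted p = 0.000144). ckmt2b, the mitochondrial form, had 58.3 and 154 CPM in 3 dpi hearts and 483 and 714 CPM in control hearts (-2.49, SE 0.43). gamt, which makes creatine, fell by 2.81 (SE 0.32) and ak1, adenylate kinase, fell by 2.18 (SE 0.40). Myoglobin, mb, stood at 5213 and 9754 CPM in 3 dpi hearts and 23410 and 25122 CPM in control hearts (-1.70, adjusted p = 0.0264), and its call was lost without 3 dpi replicate 1 (adjusted p = 0.120), without control replicate 2 (0.0701) and in the fit of only these 4 libraries (0.136).

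Some ubiquitin ligase adaptors of muscle fell as well, and others rose. The list that holds them was set by symbol and is not limited to muscle genes. In it 15.1% of those tested fell and 3.49% rose, against 6.55% and 9.05% of all genes. Of 172 genes in the list of F-box, ASB, KLHL and TRIM proteins 26 fell and 6 rose; without 3 dpi replicate 1 8 fell, without control replicate 2 11, and under library totals 12 fell and 10 rose with a median of 0.27, against -0.16 with TMM. asb2a.1 had 0.347 and 1.66 CPM in 3 dpi hearts and 22.5 and 22.6 CPM in control hearts (-4.46, SE 0.54, adjusted p = 0.000862). klhl38b fell by 3.56 (SE 0.43) and fbxo32, atrogin-1, a ligase known from muscle wasting, fell by 2.21 (SE 0.30). klhl40a, which in mammals steadies thin filament proteins, was higher, at 140 and 185 CPM in 3 dpi hearts and 53.3 and 55.8 CPM in control hearts (1.57, SE 0.22, adjusted p = 0.00174). klhl40b rose too, by 4.34 (SE 0.64). Of 53 gap junction, desmosome and intercalated disc genes tested 9 rose (17%) and 2 fell (3.77%), against 9.05% and 6.55% of all genes. Among them the connexin gja5a had 16.8 and 29.1 CPM in 3 dpi hearts and 64.2 and 67.2 CPM in control hearts (-1.52, SE 0.29), whereas cx32.2 had 58.9 and 35.1 CPM in 3 dpi hearts and 5.33 and 3.66 CPM in control hearts (3.39, SE 0.37). In the list of glucose, monocarboxylate and other solute carriers 27 of 220 rose (12.3%) and 10 fell (4.55%), against the same shares of all genes. slc2a1a, a glucose transporter, fell by 2.86 (SE 0.49), and slc16a6b, a carrier of the monocarboxylate family, rose by 2.84 (SE 0.28). The summed cardiomyocyte markers were lower in the same libraries. Skeletal muscle markers, of which 2 of 17 fell, summed to 479 and 1120 CPM in 3 dpi hearts and 2828 and 3632 CPM in control hearts; 4 fell without control replicate 1 and 1 without control replicate 2. ckmb, given above, is itself a skeletal muscle marker here. The part of cardiomyocytes or skeletal muscle in these falls was not tested.

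**Figure D5:**
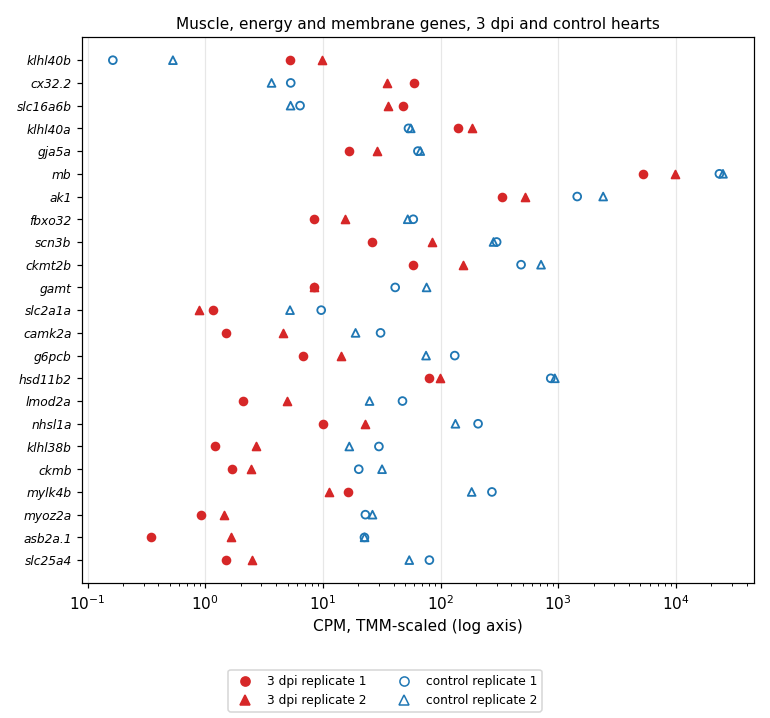
TMM-scaled CPM in each library of genes named for muscle, energy transfer, ubiquitin ligase adaptors and membrane function, on a log axis (genes with 0 counts in a library are not drawn), with 3 dpi libraries as filled points and control libraries as open points, sorted by log2 fold change. slc25a4 lies at 1.51 and 2.49 CPM in 3 dpi hearts and 80.3 and 54.2 CPM in control hearts, and klhl40b, cx32.2, slc16a6b and klhl40a at the opposite end are higher in 3 dpi hearts.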

How the data were processed

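Total RNA from pooled hearts was sequenced as bulk libraries. The authors' deposited count table holds raw counts per gene; reads were aligned with TopHat2 2.0.13 to GRCz10 and counted with HTSeq, per the submitters' processing notes. Annotation release and strand setting: not given in the sources used here. Therefore paralogs, overlapping genes and antisense genes may share reads. A second deposited table holds RPM values, used only for gene symbols; its RPM values match the counts over library totals for 100% of its 23350 genes (relative tolerance 1e-04), and its control replicate numbers are the reverse of the sample titles, which are used here.

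The tests used edgeR 4.0.16 under R 4.3.3, with filterByExpr, TMM, and a quasi-likelihood F test in 1 fit of all 8 libraries (7 dpi and larval hearts enter only the estimate of the spread) with 4 residual degrees of freedom, Benjamini-Hochberg adjusted. Standard errors (n = 2 libraries per group) were back-calculated from the test statistic. An exact permutation of 2 against 2 cannot give p under 0.333. The code was tested on simulated data. DESeq2 1.42.0 was an alternative. 58 gene lists were set by symbol, with 98 genes moved or removed by name. Members, lists and alternatives were chosen with earlier results of these data known. Named genes come from vmhc, the top 20 rises and top 20 falls among called genes by log2 fold change (10 CPM or more on average where higher, groups not overlapping), the 12 with the largest gain and the 12 with the largest loss in CPM, the 5 smallest p-values in each direction and the highest level of each list, and the markers; exceptions are marked. Intervals and floors cover counting error only.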

Additional observations from a re-analysis of the deposited data

How the results depend on the processing

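Against 1749 genes higher and 1266 lower at 3 dpi, a fit of only the 3 dpi and control libraries gave 1102 and 721, and scaling by library totals gave 3518 and 537. Leaving out 1 library at a time gave 646 to 1888 higher and 317 to 1399 lower. DESeq2 gave 2147 and 1636, upper-quartile factors 1577 and 1442, and no filter on low counts 2275 and 1695. With the replicate number as a block the counts were 1537 and 1113; deviations of same-numbered 3 dpi and control libraries correlated at -0.017 across 19330 genes, so the numbers were not taken to pair the samples. Of 136 named genes that were called, 128 were called under each of the 14 alternatives and none (0) changed direction. Most named genes were picked for small p-values or large changes, so their stability does not speak for the other called genes. Genes near 0 counts in control hearts have folds limited by depth.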

Other observations

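Genes outside the lists were among the largest rises. The 6 named here were picked for the size of their rise or gain, so their calls under the alternatives are no separate support. gda, a guanine deaminase of purine breakdown, had 111 and 66.3 CPM in 3 dpi hearts and 0.819 and 1.83 CPM in control hearts (log2 fold change 6.01, SE 0.44, edgeR quasi-likelihood adjusted p = 7.60e-05). tmem163a, a zinc-binding membrane protein, had 57.0 and 47.4 CPM in 3 dpi hearts and 0.738 and 1.06 CPM in control hearts (5.82, SE 0.57). arl4cb, a small GTPase, had 22.9 and 17.4 CPM in 3 dpi hearts and 0.246 and 0.590 CPM in control hearts (5.50, SE 0.45). cpeb1a, an RNA-binding protein that controls translation, rose by 5.42 (SE 0.62). krt18, a keratin of simple epithelia, had 1579 and 894 CPM in 3 dpi hearts and 194 and 183 CPM in control hearts (2.71, SE 0.31), and msna, moesin, which ties actin to the membrane, rose by 1.43 (SE 0.23). All 6 genes were called under each of the 14 alternatives.

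Of 2193 pairs of tested genes whose symbols differ only in a final a or b, 54 had both members higher at 3 dpi, 32 both lower, 598 a single member called and 14 members called in opposite directions. In 2 of the 14 opposite pairs both members were called under each of the 14 alternatives: the tetraspanins given above and the CTP synthase genes ctps1a and ctps1b. ctps1a had 31.4 and 30.5 CPM in 3 dpi hearts and 14.3 and 14.2 CPM in control hearts, and ctps1b had 10.6 and 7.32 CPM in 3 dpi hearts and 21.1 and 31.1 CPM in control hearts. Reads shared by paralogs may have been split in a way that the sources do not record. These pairs were chosen after their values were seen.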
